A study of Homo sapiens with 3 samples.

Results

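The transcripts of RBM17 and of 9 proteins that work with it on the U2 snRNP or at the branch site and 3’ splice site were examined in RBM17 eCLIP-seq data. Members were chosen by name, and their clusters were found through the Ensembl identifier in the replicate 2 clusters. All 10 had clusters, of 10872 genes in that file. They were RBM17, U2SURP, CHERP, SF3B1, SF3B2, SF3B3, U2AF1, U2AF2, SF1 and SUGP1. For each gene, the span from its first to its last replicate 2 cluster was used, and clusters of replicate 1 and reproducible peaks were taken from within it on the same strand. The spans were 13.1 to 48.8 kb long and all positions are in hg19.

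The data came from K562, an established cell line from a chronic myelogenous leukemia, with no knockdown or other treatment. In eCLIP, proteins are fixed to the RNA they touch by ultraviolet light, an antibody pulls down the protein of interest, and sequencing of the RNA that comes with it is set against a size-matched input. A mixture of RBM17 antibodies was used for 2 replicates, and 1 input, taken without washing of the beads, served both. Nothing in the labels says whether the replicates came from separate cultures.

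Replicate 1 was deposited as 137095 clusters with a log2 fold over the input and a −log10 p but no reads, which leaves its depth unknown. The file of replicate 2 holds 114848 distinct clusters with 3 to 8215 reads each, not yet set against the input, and these summed to 1336569 reads. A further list holds 866 peaks that the authors called reproducible, each with 1 value read here as a −log10 p and 1 read as a log2 fold, called the listed values. The study’s own table heads both columns as log2 fold changes, of replicate 1 and replicate 2. At the 508 peaks with the same interval as a replicate 1 cluster, however, neither column ever equalled the log2 fold of replicate 1, while the former was at or below its −log10 p at all 508 and equal to it at 76. How the replicates enter the listed fold is not given in the sources used here. No fold comes with a replicate error, and the results below are descriptions without a test. Intervals given with counts cover counting error only.

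The first steps of intron recognition are well known. SF1 binds the branch point sequence, U2AF2 binds the polypyrimidine tract and U2AF1 the AG at the 3’ splice site. The U2 snRNP then pairs with the branch site, where SF3B1, SF3B2 and SF3B3 belong to its SF3B complex. RBM17, also called SPF45, is an alternative splicing factor whose U2AF homology motif binds short tryptophan-containing motifs in SF1, U2AF2 and SF3B1. U2SURP and CHERP are U2 snRNP-associated proteins that form a complex with RBM17, and SUGP1 is a G-patch protein that acts with SF3B1 in branch site choice. The data concern the RNA that came with RBM17 from the transcripts that encode these proteins, and not the proteins themselves. A cluster alone does not show that RBM17 was crosslinked there.

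Reproducible RBM17 peaks lay on 5 of the 10 transcripts, and U2AF1 held 6 of the 11 peaks. RBM17 itself held 2, and SF3B1, U2AF2 and SF1 held 1 each. U2SURP, CHERP, SF3B2, SF3B3 and SUGP1 held none. Of all genes with a replicate 2 cluster, 3.94% had a reproducible peak within their span. Among the 4629 genes with at least as many reads as SUGP1, the member with the fewest, the share was 9.07%. SUGP1 had 45 reads and the members with a peak had 156 to 830, so this share is not matched for depth. In the study’s annotation, the first region of the 11 peaks was a proximal intron for 6, the 5’-SS for 2, and the 3’-SS, the 3’-UTR and the 5’-UTR for 1 each. Their log2 folds had a median of 3.65, against 3.80 over all reproducible peaks, and 7 of the 11 were below that value.

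On its own transcript, RBM17 had peaks at 6150562 to 6150647 and at 6154417 to 6154484 on the + strand of chromosome 10. The former was annotated at the 3’-SS and the latter as a proximal intron reaching into the CDS. Their listed log2 folds were 3.15 and 3.16, which were higher than those of 9.35% and 10.6% of all peaks, so both lie near the lower limit of the list. In replicate 1 the first interval had a log2 fold of 3.31 with a −log10 p of 5.73. The cluster at the second had 2.997 with a −log10 p of 5.59, just under 3. In replicate 2 the overlapping clusters held 16 and 27 reads. The count of 27 was the highest in the gene and was shared with the neighbouring cluster at 6154288 to 6154375, whose replicate 1 log2 fold was also 2.997. By contrast, the cluster that came next in reads, at 6157422 to 6157515, had 19 reads and a replicate 1 log2 fold of -0.03.

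U2AF1, which encodes the small U2AF subunit, had peaks at 3 places on the − strand of chromosome 21. A group of 4 lay within 599 bp, between 44520800 and 44521398, with log2 folds of 3.19 to 4.26. The peaks at 44521304 to 44521359 and 44521360 to 44521398 abut each other and both overlap the same replicate 2 cluster of 53 reads, the former by 12 of its 56 bp, so they are not separate observations in that replicate. Their replicate 1 log2 folds were 4.62 and 3.86. Next to them, the peak at 44521258 to 44521302 had a listed log2 fold of 4.14 and a −log10 p of 10.9, the highest −log10 p of the 11, with 4.10 in replicate 1 and 36 reads in replicate 2. Upstream, 267 bp from the 5’ end of the span, the peak at 44527264 to 44527351 had the highest listed fold of any member, 5.01, and exceeded 92.6% of all reproducible peaks. It had a log2 fold of 4.28 in replicate 1 and 29 reads in replicate 2. Downstream, the peak at 44515402 to 44515449 had a listed log2 fold of 3.22 and was annotated at the 5’-SS. There the single overlapping replicate 1 cluster was wider and had a log2 fold of 2.12, with a −log10 p of 12.2. This same wide cluster also covered the U2AF1 cluster with the most reads in replicate 2, 56 at 44515481 to 44515629, which was not called a peak.

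The partner subunit U2AF2 had 1 peak, 252 bp from the 5’ end of its span on chromosome 19, at 56166313 to 56166382. It was annotated to the 5’-UTR, with a listed log2 fold of 3.65 and a −log10 p of 3.49. The same interval was a cluster of replicate 1, where its log2 fold was 4.41 and a −log10 p of 14.8, and the overlapping replicate 2 cluster held 14 of the 156 reads of the gene. SF1 had 1 proximal intron peak at 64541256 to 64541334 on chromosome 11, with a listed log2 fold of 3.28 and a −log10 p of 7.24. Its replicate 2 cluster of 63 reads was the highest of any member, whereas the replicate 1 log2 fold was 2.70. SF3B1 had 1 peak of 21 bp at 198284356 to 198284376 on chromosome 2, annotated to a 3’-UTR although it lay 15101 bp from the 5’ end of a span of 34.4 kb. Its listed log2 fold was 3.81, replicate 1 alone gave 3.48, and the replicate 2 cluster held 14 reads.

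At all 11 peaks both replicates had a cluster, as the making of the list requires. In replicate 1, 5 of the clusters had exactly the interval of the peak, 8 of the 11 passed a log2 fold of at least 3 with a −log10 p of at least 3, and 5 had a higher fold than the listed one.

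**Figure D1:**
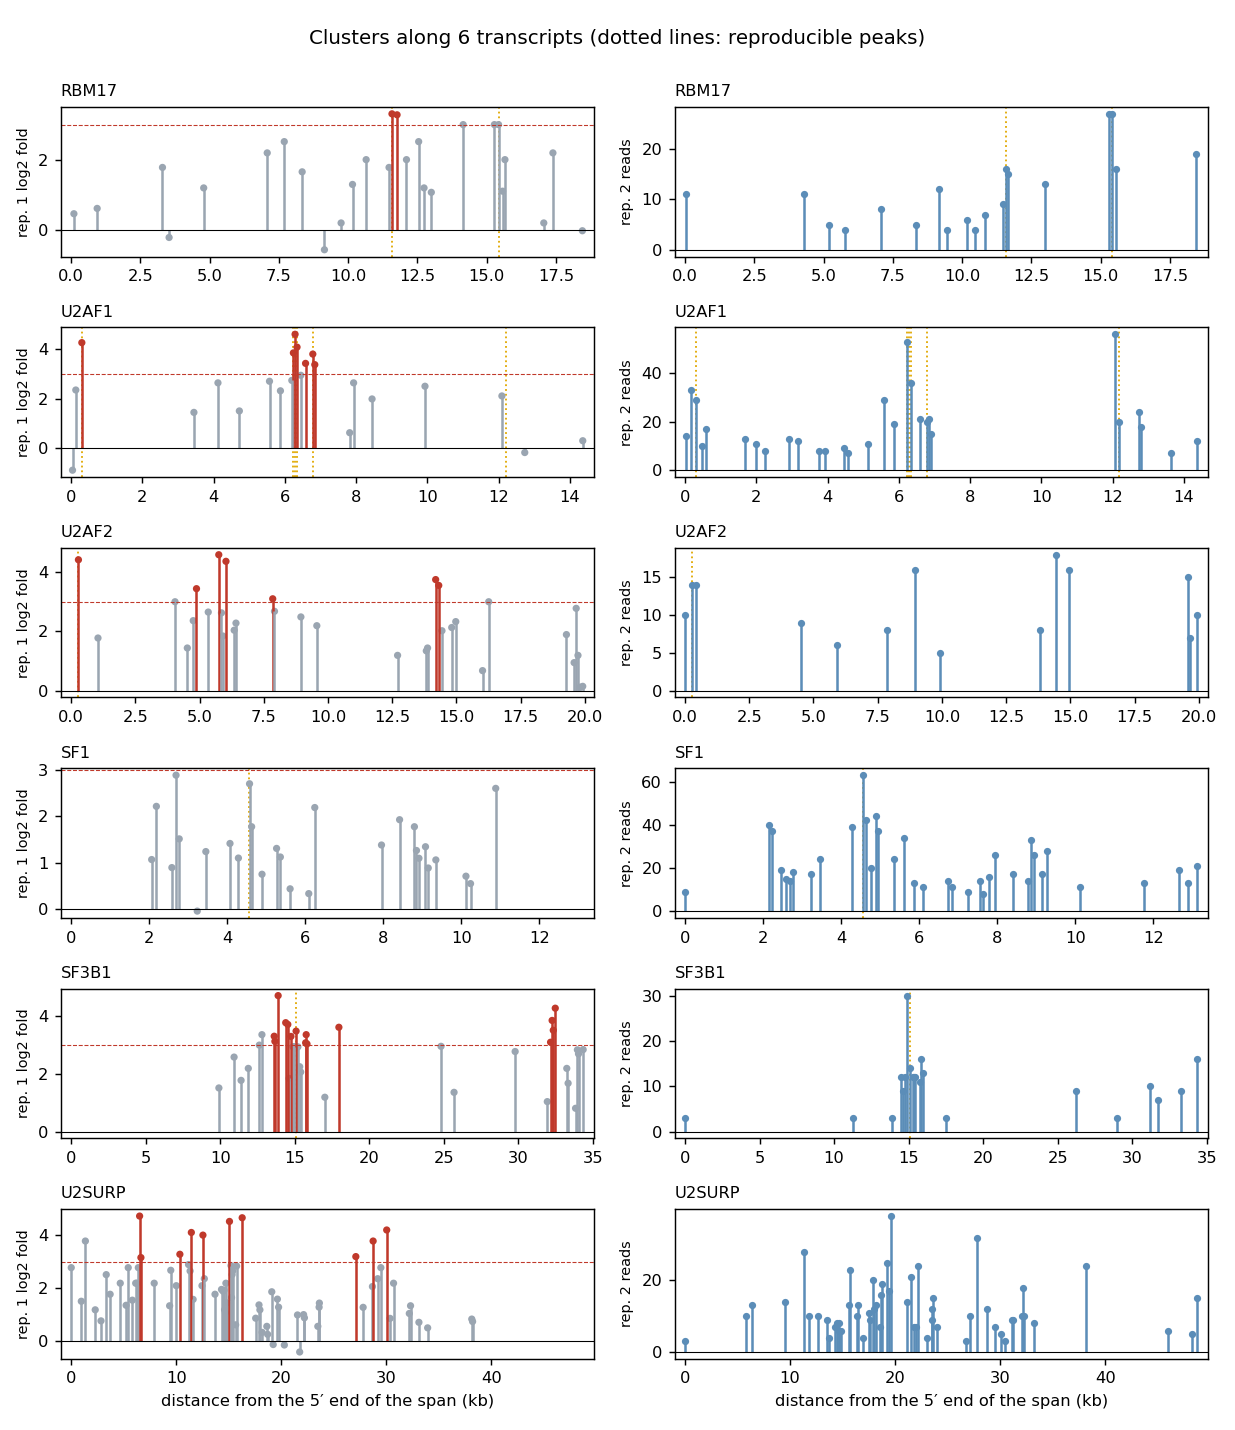
Position of clusters along RBM17, U2AF1, U2AF2, SF1, SF3B1 and U2SURP. The x axis is the distance in kb from the 5’ end of the span, stems on the left give the log2 fold over the input in replicate 1 (red where log2 fold and −log10 p are both at least 3, dashed line at 3), stems on the right give reads in replicate 2, and dotted lines mark reproducible peaks. The 4 neighbouring peaks of U2AF1 have reads in replicate 2, as do 5 of the 10 red SF3B1 clusters near the peak of that gene and 3 of the 10 red clusters of U2SURP, which has no peak.

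In replicate 2, cluster reads per kb of span were highest in SF1 and lowest in SUGP1. These reads are not relative to the input, so the amount of a transcript and the binding to it cannot be told apart. SF1 had 63.2 reads per kb (exact Poisson 95% interval 59.0 to 67.7) and U2AF1 38.5 (35.4 to 41.9). SF3B2 followed with 19.5 (17.4 to 21.8), U2SURP with 14.2 (13.2 to 15.3) and RBM17 with 11.8 (10.3 to 13.5). The intervals of U2SURP and RBM17 overlap, while those of SF1, U2AF1 and SF3B2 do not overlap each other or any lower gene.

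Lower in that order, U2AF2 had 7.82 reads per kb (6.64 to 9.15), SF3B1 6.37 (5.56 to 7.28) and SF3B3 6.27 (5.58 to 7.02), with intervals that overlap between neighbours. CHERP had 2.68 (2.04 to 3.45) and SUGP1 1.12 (0.819 to 1.503). As totals, the reads ran from 45 in SUGP1 and 59 in CHERP to 692 in U2SURP and 830 in SF1, and 7 of the 10 genes were at or above the 90th percentile of all genes, but 4 by number of clusters and 4 by reads per kb of cluster length. RBM17 and SF3B1 each had 219 reads, at the 91.4 percentile. The low place of SF3B1 per kb of span depends on the length used. By reads per kb of cluster length it was at the 93.4 percentile, beside SF1 at 95.8 and U2AF1 at 93.1. No gene had its reads in a single place: the cluster with the most reads held between 5.49% of the reads of U2SURP (exact Clopper-Pearson 95% interval 3.91 to 7.46%) and 16.9% of those of CHERP (8.44 to 29.0%).

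**Figure D2:**
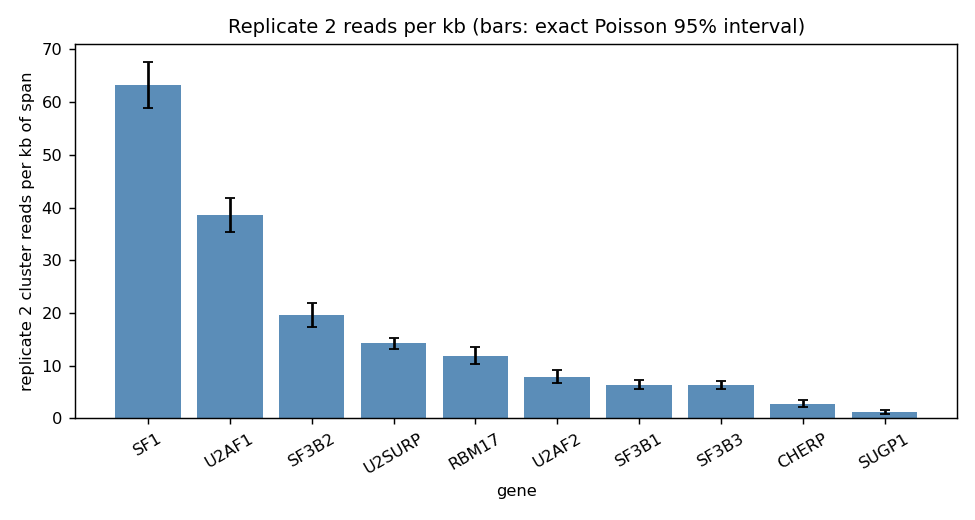
Reads in replicate 2 clusters per kb of span for the 10 genes, with exact Poisson 95% intervals as error bars (counting error only). SF1 at 63.2 and U2AF1 at 38.5 stand above the others, and CHERP and SUGP1 are lowest.

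The fold over the input in replicate 1 gave another order than reads per kb of span. SF3B1, the SF3B subunit that holds the branch site, had the highest median with 2.94 over 38 clusters, and none of its clusters was below 0. U2AF1 had a median of 2.65 over 23 clusters, SUGP1 2.51 over 9, SF3B2 2.32 over 33, U2AF2 2.28 over 33 and CHERP 2.19 over 35. U2SURP and RBM17 both had a median of 1.77, over 77 and 27 clusters. SF1, the gene with the most reads, had only 1.25 over 28 clusters, and SF3B3 was lowest with 1.19 over 55. The top of this order changed among clusters with a −log10 p of at least 3. There CHERP had 4.16, U2AF1 3.17, U2SURP 3.15, RBM17 3.14 and SF3B1 3.10. The CHERP value rests only on its clusters with log2 folds of 4.89 and 3.44, and both also lie in the span of another gene. SUGP1 had no such cluster, and SF1 and SF3B3 were again lowest with 2.41 and 2.23. The SF3B3 value is that of its only such cluster, and RBM17 and SF1 also had few. Values from so few clusters do not rank the genes. Over the 358 member clusters together the median was 1.85, against 1.51 over all clusters in gene spans, and the medians of 8 of the 10 genes were above 1.51. The share of all genes above 1.51 was not counted. Of all genes with at least 3 replicate 1 clusters, 46.5% had a median below that of SF1 and 62.1% below that of RBM17. A median above 1.51 was therefore common among genes. Folds below 0 were found at 15 member clusters (4.19%), against a share of 11.3% over all clusters in gene spans.

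**Figure D3:**
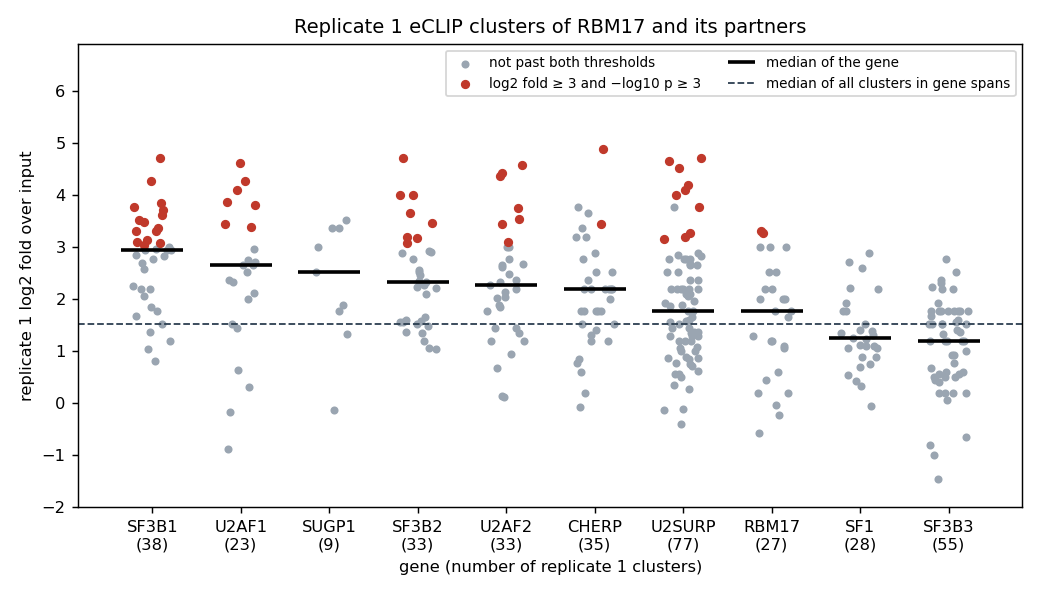
Log2 fold over the input of every replicate 1 cluster of the 10 genes, ordered by their median (black line), with clusters past both thresholds in red and the median of all clusters in gene spans, 1.51, as a dashed line. SF3B1 has the most red points, 15, while SUGP1, SF1 and SF3B3 have none.

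A replicate 1 cluster was called enriched when its log2 fold and its −log10 p were both at least 3. This held for 51 of the 358 member clusters, or 14.2% (exact Clopper-Pearson 95% interval 10.8 to 18.3%), and for 5.62% of all replicate 1 clusters in gene spans. Such a cluster was found in 7 of the 10 genes, against 15.7% of all genes, a share that includes many genes with few clusters. The members had a median of 258 replicate 2 reads, against 33 over all genes with a replicate 2 cluster. The part of this in both comparisons was not tested. SF3B1 had 15 enriched clusters of 38, or 39.5% (24.0 to 56.6%). U2AF1 had 7 of 23, or 30.4% (13.2 to 52.9%), and SF3B2 8 of 33, or 24.2% (11.1 to 42.3%). U2AF2 had 7 of 33, or 21.2% (8.98 to 38.9%), and U2SURP 10 of 77, or 12.99% (6.41 to 22.6%). RBM17 had 2 of 27, or 7.41% (0.910 to 24.3%), and CHERP 2 of 35, or 5.71% (0.700 to 19.2%), and both of these intervals include the share of all clusters. All these intervals take clusters as independent, although enriched clusters lay close together in some transcripts, and they are not a test. Without clusters that also lie in the span of another gene, U2SURP kept 55 clusters with 7 enriched and CHERP kept none of its 35, which left an enriched cluster in 6 of the 10 genes.

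No cluster of SF3B3, SF1 or SUGP1 was enriched by this rule. For SF3B3 the upper limit of the interval was 6.49% and the highest log2 fold 2.77. For SF1 they were 12.3% and 2.89. SUGP1 differs from these, because 3 of its 9 clusters had a log2 fold of at least 3 while its highest −log10 p was 2.39, and its upper limit was 33.6%. Just inside the limit on the fold were clusters of SF3B1 with 3.04 and of SF3B2 with 3.07, and just outside were the RBM17 clusters at 2.997. At the limit on −log10 p, a cluster of SF3B1 lay just inside with 3.08, and 1 cluster each of U2SURP and CHERP lay just outside with 2.97.

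Enriched clusters were close together in some transcripts. In SF3B1, 10 of the 15 lay within 2222 bp, from 198283636 to 198285857, with log2 folds of 3.04 to 4.71, and this stretch also holds the reproducible peak. A further 4 lay together near the 3’ end of the span, from 198267000 to 198267324, with log2 folds of 3.10 to 4.28 and no replicate 2 cluster. In U2AF1, 6 of the 7 lay within 641 bp, from 44520758 to 44521398, and all 6 overlapped a replicate 2 cluster. SF3B2, an SF3B subunit that contacts the pre-mRNA near the branch site, had 7 of 8 within 2636 bp, from 65825872 to 65828507 on chromosome 11. The cluster at 65826233 to 65826318 reached a −log10 p of 21.9, the highest of the 358, with a log2 fold of 3.65. The replicate 2 cluster there held 34 reads, the most of that gene, yet no reproducible peak was listed. In U2SURP the enriched clusters were spread out, with at most 3 in any 3 kb.

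The genes with many enriched replicate 1 clusters were not always those with a reproducible peak. U2SURP had 10 enriched clusters and no peak, and 7 of the 10 had no replicate 2 cluster at the same place. Its clusters with the most reads in replicate 2, 38 at 142743434 to 142743521 and 32 at 142751621 to 142751723 on chromosome 3, had replicate 1 log2 folds of 1.59 and 1.28. SF3B2 had 8 enriched clusters and no peak, with a replicate 2 cluster at 3 of them. For SF1 it was the other way round, with a reproducible peak and no replicate 1 cluster past the thresholds. Because replicate 2 was deposited without a fold over the input, its part in each listed value cannot be computed.

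**Figure D4:**
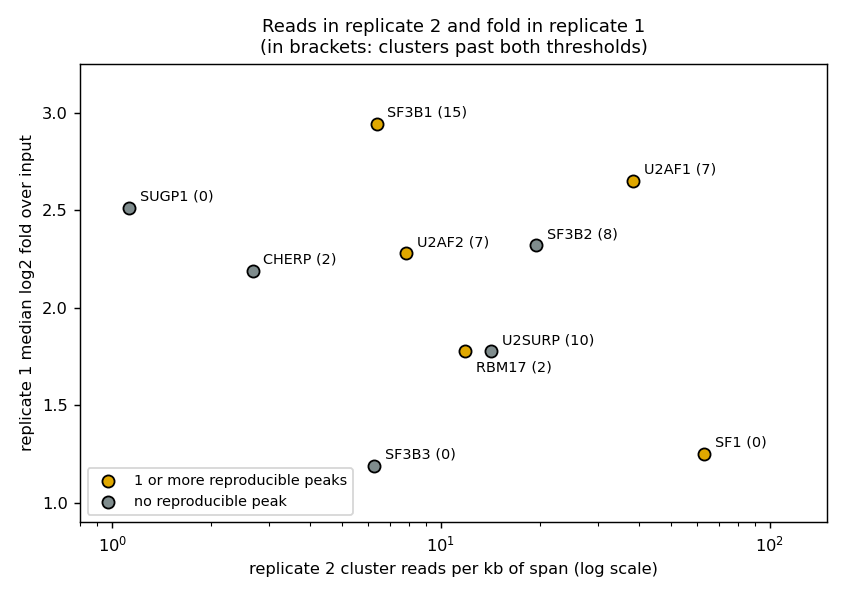
Replicate 2 cluster reads per kb of span (log scale) against the median replicate 1 log2 fold over the input for the 10 genes, with the number of replicate 1 clusters past both thresholds in brackets and genes with a reproducible peak in yellow. SF1 has the most reads per kb of span and the second lowest median fold, and SF3B1 the highest median fold with 6.37 reads per kb of span. By reads per kb of cluster length, SF3B1 was at the 93.4 percentile of all genes.

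Clusters of the 10 transcripts recurred between replicates. Of the 257 replicate 2 clusters, 145 overlapped a replicate 1 cluster, or 56.4% (50.1 to 62.6%), against 32.0% of all replicate 2 clusters. Member genes are among those with more reads, and the part of this in the share was not tested. Of the 358 replicate 1 clusters, 148 overlapped a replicate 2 cluster, or 41.3% (36.2 to 46.6%), against 28.5% of those in gene spans. Of the 46 replicate 2 clusters with a peak-caller p of at most 1e-10, 42 overlapped a replicate 1 cluster, or 91.3%, and for all such clusters the share was 78.5%. By gene, the share of replicate 2 clusters found again was highest in U2AF2 with 11 of 14 and lowest in SUGP1 with 2 of 12. Of the 51 enriched replicate 1 clusters, 22 overlapped a replicate 2 cluster, near the share of 39.4% among all enriched clusters in gene spans. That number was 7 of 7 in U2AF1, 5 of 15 in SF3B1, 2 of 7 in U2AF2, and 1 of 2 in both RBM17 and CHERP.

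CHERP and U2SURP share their ground with other identifiers. In the span of CHERP, 17 clusters of another Ensembl gene overlapped, 4 of them with the same interval as a CHERP cluster, and in U2SURP the numbers were 9 and 2, so reads of these pairs cannot be told apart. In SF3B3, 2 clusters belonged to the small nucleolar RNAs SNORD111 and SNORD111B. The highest replicate 1 fold within or across the edge of any span lay at the 3’ edge of CHERP, at 16630657 to 16630778 on chromosome 19, where the log2 fold reached 5.44 and the −log10 p 22.2. It overlaps the CHERP cluster with the most replicate 2 reads, 10, but reaches past the end of the span, where the other gene also has clusters, and is therefore not among the 358. Beside it, at 16630817 to 16630897, an enriched CHERP cluster had a log2 fold of 4.89. No reproducible peak was listed at either place.

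The other components of the U2 snRNP and the other factors of the 3’ splice site were listed for comparison, and no difference from the 10 members was tested. Of 10 further U2 components, 9 had a replicate 2 cluster (SNRPB2 had none) and DDX46, an RNA helicase of U2 snRNP remodelling, had the single peak, with a log2 fold of 3.297. Among the 120 replicate 1 clusters of this list, 6 were enriched, or 5% (1.86 to 10.6%), near the share of all clusters. The SF3A subunits SF3A1, SF3A2 and SF3A3, and SF3B4, SF3B5, SF3B6, PHF5A and SNRPA1, had no peak. Of 11 other U2-associated and 3’ splice site factors, SUGP2 and RBM5 had 1 peak each. SUGP2, a G-patch protein related to SUGP1, had a log2 fold of 5.10 at its peak, and RBM5, an alternative splicing regulator, had 4.28. In this list 18 of 210 replicate 1 clusters were enriched, or 8.57% (5.16 to 13.2%), and RBM5 held 10 of them. Median replicate 2 reads per gene were 60 in the U2 list and 63 in this list, against 258 in the 10 members. The part of this in the enriched shares was not tested.

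For the SR proteins SRSF1 to SRSF12, which bind exonic enhancers, 10 genes had a replicate 2 cluster and 6 of these had a peak, with 20 peaks in all. Their enriched share was 45 of 234 replicate 1 clusters, or 19.2% (14.4 to 24.9%), an interval that overlaps that of the 10 members. The median of replicate 2 reads per SR gene was 345.5, and no difference was tested. SRSF6 led with 7 peaks and SRSF7 followed with 5, next to the 6 of U2AF1. By percentiles of replicate 2 reads, number of clusters, median replicate 1 fold and share of enriched clusters, the genes most like RBM17 among 6329 genes with at least 3 clusters in each replicate were SPPL2B, GNL3 and CYTH2, at distances of 2.17, 4.90 and 5.31 percentile units. None of these 3 had a reproducible peak and RBM17 had 2. Such a peak was found in 3.94% of all genes with a replicate 2 cluster and in 9.07% of those with at least as many reads as SUGP1. Neither share is limited to genes with reads like those of RBM17. Each of the 3 had 1 enriched cluster, against 2 in RBM17.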

How the data were processed

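RBM17 eCLIP-seq of K562 cells was analysed from the processed files. Reads were processed by the authors with the eCLIP v0.4.0 pipeline, and cutadapt and STAR are named in the submitters' processing notes without versions. The build is not given in the sources used here and was taken as hg19, because positions on chromosome 1 reach 249211903, beyond its length of 248956422 in hg38. For replicate 1 clusters, the values deposited by the authors are a log2 fold over the input and its −log10 p, and the values of the reproducible peaks were read as the same units. For replicate 2 they deposited the p-value of the peak caller and a cluster name that holds the gene and its reads. Replicates are numbered as in the sample descriptions, while the titles number them 2 and 3. The reproducible list has no header, and the study's own table heads its value columns as log2 fold changes of replicates 1 and 2. They were read here as −log10 p and log2 fold after a comparison with replicate 1 at peaks of the same interval, with values within 1e-06 taken as equal.

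Symbols were matched to Ensembl identifiers of GENCODE v44. Replicate 1 clusters and peaks had to lie wholly within the span of a gene's replicate 2 clusters, and overlaps needed 1 bp on the same strand. Computation used Python 3.11.15, pandas 2.3.3, numpy 2.4.6, scipy 1.17.1 and matplotlib 3.10.9. Counting of overlaps was tested on simulated data. Regions of peaks are those of the study's annotation. The members, lists and thresholds were chosen with earlier results of these data known. All members are named, along with genes with a peak in the other lists and the 3 genes nearest to RBM17. The genes of the other lists without a peak, the edge clusters and the stretches of close clusters were named after their values were seen. No hg19 sequence was used here, so no sequence of a peak is given.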

Additional observations from a re-analysis of the deposited data

How the results depend on the processing

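With a listed log2 fold of at least 4, 3 of the 11 peaks were left, all in 1 gene, U2AF1, and with a −log10 p of at least 5, 6 peaks in 3 genes. Merging abutting peaks gave 10. Without replicate 2, 7 members had an enriched replicate 1 cluster, and leaving out replicate 1 was not possible because replicate 2 has no fold. Enriched member clusters numbered 15 at a log2 fold of at least 4 and 35 to 52 under the other alternatives for thresholds, span and shared genes. Limited to clusters in the span of 1 gene, CHERP could give no value, since none of its 35 clusters was left. The median log2 fold of member clusters was 2.997 among clusters with a −log10 p of at least 3, which by construction selects high folds, and 1.77 to 2.06 otherwise. The number of members at or above the 90th percentile fell from 7 to 4 by number of clusters and to 4 by reads per kb of cluster length. Recurrence of replicate 2 clusters was 47.5% with 50% overlap, 91.3% at p of at most 1e-10, 0% on the opposite strand and 7.78% against enriched replicate 1 clusters, which was added after the data were seen, as were the background limited by reads and the count without U2SURP, CHERP and SF3B3 (39). The share of 0% on the opposite strand may be fixed by the peak calling, since replicate 2 clusters are named by gene. For single genes, 95 values were close to those given and 22 moved, and no median changed sign. No paired analysis was possible because the single input has no file and no result comes from a test. The depth of replicate 1 is unknown, and low read counts limit CHERP and SUGP1.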

Other observations

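On the opposite strand of the spans, replicate 1 had 0 clusters and replicate 2 had 1, of 3 reads, in CHERP. Replicate 2 clusters are named by gene, so the peak calling may fix their strand. These counts therefore say nothing about the strand of binding.

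The replicate 1 folds took a limited set of values. Of the 51 enriched member clusters, 50 had a pair of log2 fold and −log10 p that also occurred at other clusters of the file, against 91.8% of all enriched clusters. The pair of 4.71 and 6.22, for example, occurred in U2SURP and in SF3B2, and the exception was the SF3B2 cluster with a −log10 p of 21.9.

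Across the 10 genes, replicate 2 reads per kb of span and median replicate 1 fold had a Spearman's rho of -0.11, given as a description over genes that share both libraries.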
